A study of Mus musculus with 8 samples.

Results

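Transcripts of 9 tight junction genes were followed in the whole mouse esophagus, out of 32849 gene symbols in the count table. The genes were taken by symbol as named members of the junction, with no threshold on a measured value but with earlier results of these data known: the claudins Cldn1, Cldn3, Cldn4, Cldn5, Cldn7 and Cldn23, the membrane proteins occludin (Ocln) and junctional adhesion molecule A (F11r), and the scaffold zonula occludens 1 (Tjp1). There were 4 libraries of the genotype MGL KO and 4 of MGL WT (WT below), each from poly(A)-selected RNA of frozen esophagus from untreated mice. MGL KO mice lack monoacylglycerol lipase, which degrades the endocannabinoid 2-arachidonoylglycerol, in the whole body rather than in a chosen cell type, and were bred in-house beside WT littermates. The labels give neither age nor sex for a library, and according to the study's methods adult mice of both sexes were used. The question was which transcripts differed between the genotypes at baseline. The labels list separate samples and do not say how litters or days were divided, so p-values measure the spread between these samples.

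Tight junctions close the space between neighboring cells at their apical border. Claudins form the strands and set which ions and molecules pass, occludin and junctional adhesion molecules sit beside them in the membrane, and zonula occludens proteins tie the strands to actin. In the stratified squamous epithelium of the esophagus these junctions lie in the upper cell layers, whereas simple epithelia, gland ducts and blood vessels carry claudin sets of their own. Esophageal barrier function is studied in eosinophilic esophagitis, the disease addressed by the study.

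All 9 genes were placed on GRCm39 with GENCODE M39. Cldn3 (chr5:135015068-135016326, plus strand) and Cldn4 (chr5:134973973-134975788, minus strand) are neighbors, separated by 39.3 kb that hold 2 annotated long noncoding RNA genes and no protein-coding gene. Each of them has 1 exon, as have Cldn5 (chr16:18595597-18597012, plus strand) and Cldn23 (chr8:36291866-36293713, minus strand). Cldn1 (chr16:26175392-26190596, minus strand) and Cldn7 (chr11:69852648-69858711, plus strand) have 4 exons. Ocln (chr13:100630334-100689535, minus strand) has 9, F11r (chr1:171265092-171292958, plus strand) 10 and Tjp1 (chr7:64945898-65177529, minus strand) 27. Cldn7 overlaps the protein-coding gene Elp5 on the opposite strand, and Cldn3 overlaps the noncoding Wbscr25. Cldn1, Ocln, F11r and Tjp1 also overlap other annotated genes, all of them noncoding, pseudogenes or unclassified, so that 6 of the 9 share positions with another gene. These overlaps are of whole gene spans, introns included. The use of strand in counting is not given in the sources used here, so the assignment of reads from shared bases is not known.

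The 250 bases upstream of the canonical transcript are shown for the neighbors Cldn3 and Cldn4, which were highest in the same library, for Cldn5, the claudin of blood vessels, and for Cldn1, the claudin typical of squamous epithelium. Letters are 5′ to 3′ on the strand of the gene, and capitals mark matches on either strand to the E-box CAGGTG, the motif of Snail and ZEB repressors, to AACNGGTT, the motif of grainyhead-like factors, or to the GC box GGGCGG.
Cldn3, chr5:135014818-135015067, plus strand: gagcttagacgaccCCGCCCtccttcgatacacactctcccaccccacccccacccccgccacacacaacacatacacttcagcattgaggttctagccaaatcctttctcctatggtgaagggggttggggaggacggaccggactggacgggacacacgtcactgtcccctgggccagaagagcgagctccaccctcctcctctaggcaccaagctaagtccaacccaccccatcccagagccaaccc
Cldn4, chr5:134975789-134976038, minus strand: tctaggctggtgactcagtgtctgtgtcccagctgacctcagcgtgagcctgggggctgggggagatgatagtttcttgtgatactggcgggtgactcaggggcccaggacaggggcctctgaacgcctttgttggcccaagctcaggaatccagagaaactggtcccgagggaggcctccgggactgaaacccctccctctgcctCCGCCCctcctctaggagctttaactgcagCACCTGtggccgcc
Cldn5, chr16:18595347-18595596, plus strand: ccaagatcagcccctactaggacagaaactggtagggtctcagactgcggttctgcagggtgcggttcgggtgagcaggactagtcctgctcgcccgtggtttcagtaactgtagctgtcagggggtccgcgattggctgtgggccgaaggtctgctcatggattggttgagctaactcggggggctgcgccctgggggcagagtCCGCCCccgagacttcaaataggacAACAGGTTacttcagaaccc
Cldn1, chr16:26190597-26190846, minus strand: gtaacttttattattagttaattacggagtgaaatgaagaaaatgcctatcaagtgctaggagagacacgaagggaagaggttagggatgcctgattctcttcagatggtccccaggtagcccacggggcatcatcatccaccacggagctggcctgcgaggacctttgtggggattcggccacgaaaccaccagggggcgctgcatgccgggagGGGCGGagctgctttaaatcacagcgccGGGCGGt
Cldn4 held 1 CAGGTG match in this window and Cldn3 held none. CAGGTG was found upstream of 4 of the 9 genes and in 17.7% of 21738 promoters of the same length. Cldn5 held the only AACNGGTT match among the 9, against 1.8% of all promoters. GGGCGG was present for 8 of 9 genes, against 36.3% of promoters, and TATAAA for 0 of 9, against 11.9%. Matches of different motifs did not overlap in the windows shown. The Cldn3 and Cldn5 windows each hold 1 annotated exon.

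The targeted gene followed the labels: Mgll lay between 12.6 and 16.0 normalized CPM (counts scaled to library size) in MGL KO and between 66.6 and 88.3 in WT (log2 fold change of -2.57, adjusted p = 0.000133 by edgeR's quasi-likelihood test). Total counts per library were 13479069 to 17090152, so that 3 counts equal 0.167 to 0.271 CPM. This is about the 95% upper limit of a true level behind a count of 0, for counting error only. Squamous epithelium was present in every library, with the differentiation keratins Krt4 and Krt13 at 546 CPM or more, while Rhcg was at 0 throughout. Libraries MGL KO 2 and MGL KO 4 stood apart. Results of the 9 genes that rest on them are given with and without them, and those of junction genes outside the 9 only in part. In MGL KO 4, the 10 airway ciliated markers summed to 753.4 CPM and the 9 airway secretory and gland markers to 11657, against no more than 21.9 and 72.0 in the other 7 libraries. The 72.0 was MGL KO 1, and the secretory sum was 1.83 to 4.11 in all remaining libraries. Fits without MGL KO 2 and 4 still hold MGL KO 1. In MGL KO 2, the 12 markers of differentiated squamous epithelium summed to 2347 CPM, the lowest value, against 3452 to 15534 elsewhere. In bulk tissue, fewer cells of a type and less RNA per cell cannot be told apart.

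Once scaled to transcript length, F11r and Cldn5 were the most abundant of the 9 transcripts in WT. WT esophagi held 20.2 ± 3.49 CPM per kb of F11r (mean ± SD, n = 4), 14.9 ± 1.39 of Cldn5 and 8.34 ± 1.58 of Tjp1. Cldn4 followed at 2.16 ± 2.23 CPM per kb, Cldn1 at 1.31 ± 0.43, Cldn3 at 0.431 ± 0.415 and Ocln at 0.414 ± 0.193. The lowest were Cldn23 at 0.245 ± 0.179 and Cldn7 at 0.169 ± 0.031 CPM per kb, close to the counting limit. In this order only the steps from Cldn5 to Tjp1 and from Tjp1 to Cldn4 had WT ranges that did not overlap, and the WT ranges of all other neighbors overlapped.

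The claudin family as a whole was led by Cldn5 in every library but MGL KO 4. Of 35 claudin rows, 14 were at 0 in all libraries and 12 were abundant enough to be tested. In WT, Cldn5 took 45.3% of summed claudin CPM per kb and Cldn12, a claudin without the usual scaffold-binding tail, 12.6%. Cldn1 took 3.85% and Cldn3 between 0% and 2.07%. The sum over all claudins was 24.0 to 41.3 CPM per kb in 7 libraries and 122.3 in MGL KO 4. Cldn3 made up 45.3% and Cldn7 18.8% of that library's sum, while in MGL KO 2 Cldn3 reached 21.4%. In the other 6 libraries Cldn3 stayed at or under 3.59%.

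**Figure D1:**
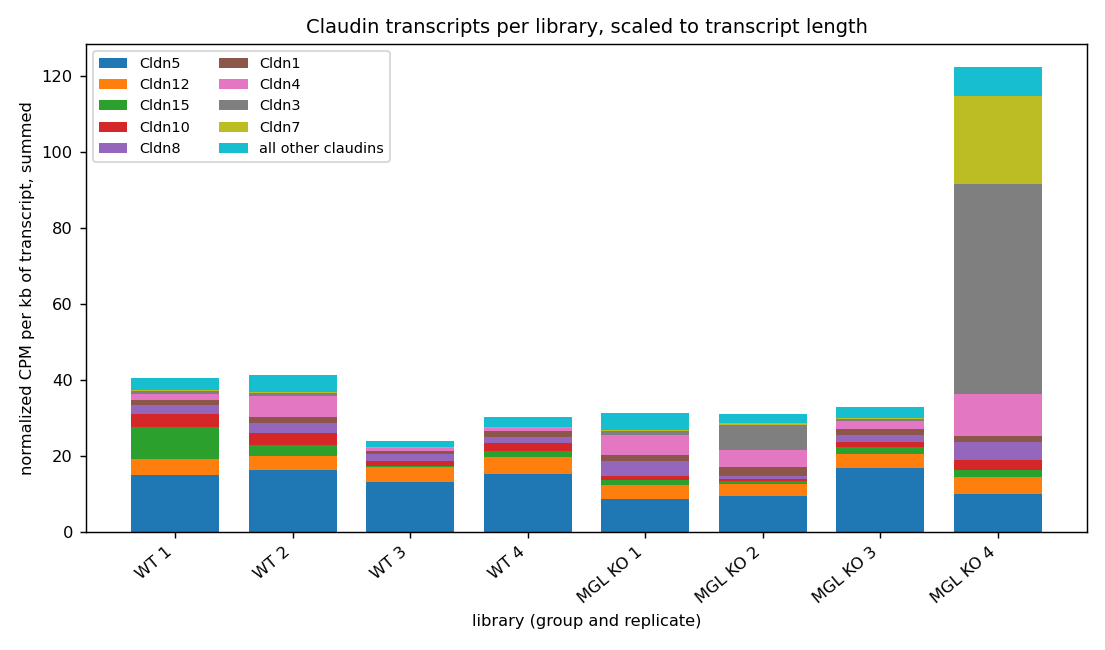
Summed claudin transcripts in each library, in normalized CPM per kb of canonical transcript, stacked by gene (1 bar per library). MGL KO 4 reaches 122.3, mostly Cldn3 and Cldn7, while the other 7 libraries lie between 24.0 and 41.3 with Cldn5 as the widest segment.

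No tight junction gene of the 9 passed the threshold between genotypes. Of the 9, 7 had enough counts to be tested, Cldn7 and Cldn23 being left out by the filter on low counts. At an adjusted p under 0.05, 0 of 7 were called, against 7 of 14864 genes (0.0471%), and 0 were called by edgeR's exact test, DESeq2 or limma-voom as well. At an unadjusted p under 0.05 there was 1 of 7, Cldn3, against 8.65% of all genes. The 4 MGL KO and 4 WT values overlapped for all 7, where 6.02% of all genes had groups that did not overlap. The log2 fold change was above 0 for 5 of 7, with a median of 0.45 beside 0.02 over all genes tested. That balance moved with the libraries included: without MGL KO 4, 3 of 7 were above 0 with a median of -0.20, beside -0.01 over all genes, and without MGL KO 2 and 4 it was 4 of 7 with a median of 0.26, beside -0.02.

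**Figure D2:**
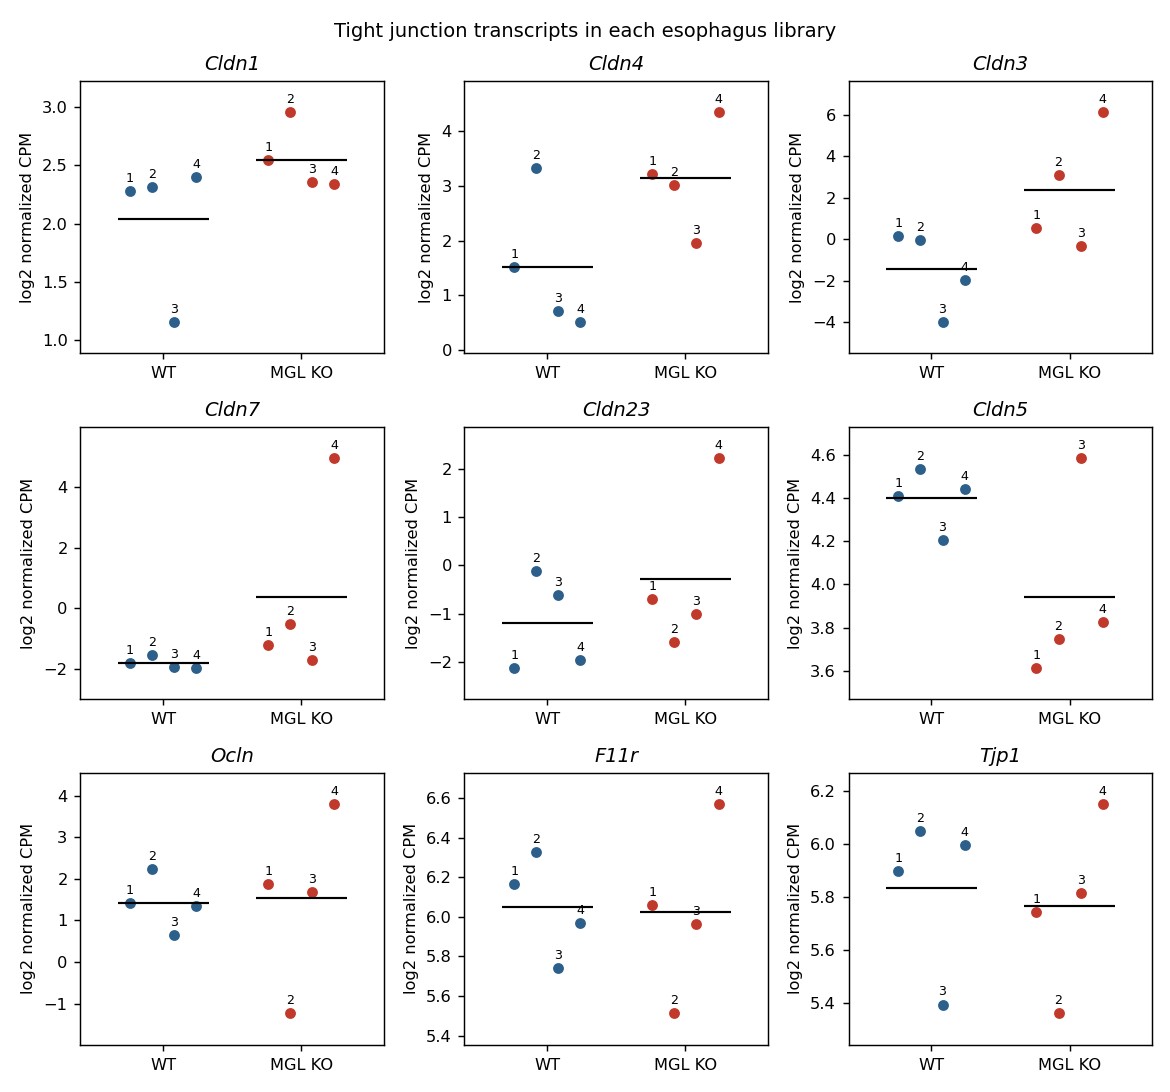
Log2 normalized CPM of the 9 genes (1 panel each, axes scaled separately) in the 4 WT and 4 MGL KO libraries, with the replicate number at each point and the group mean as a line. MGL KO 4 is the highest library in 7 panels, all but Cldn1 and Cldn5, and the groups overlap in every panel.

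Cldn3, a sealing claudin of simple epithelia and gland ducts, had the widest span of the 9. In MGL KO it measured 1.41, 8.39, 0.74 and 69.7 CPM in replicates 1 to 4, and in WT 1.06, 0.91, 0 and 0.20. MGL KO 4 was far above every other library, MGL KO 2 came next, and MGL KO 1 and 3 lay at or near the level of WT 1 and 2. The mean was 20.1 ± 33.3 CPM (SD, n = 4) in MGL KO and 0.542 ± 0.523 in WT. The log2 fold change of 5.15 had a standard error (SE) of 1.55 and an adjusted p of 0.478, and an exact two-sided permutation test of the 4 against 4 log2 values gave p = 0.0857, where 0.0286 is the smallest it can give. Without MGL KO 4 the log2 fold change was 2.62 (adjusted p = 0.519), and without MGL KO 2 and 4 it was 0.94 (adjusted p = 0.889). Markers of simple and glandular epithelium, Krt7, Krt8, Krt18 and Krt19, all 4 detected, summed to 406.8 CPM in MGL KO 4, 62.4 in MGL KO 2, 35.2 in WT 1 and 3.22 to 12.9 in the other 5 libraries. The tested genes with the profile most like Cldn3 were the keratins Krt8 and Krt18 and the water channel Aqp5, with root mean square differences of 1.10, 1.15 and 1.25 on the log2 scale over 8 libraries. The part of these markers in the result was not tested. Wbscr25, on the opposite strand, had 2 to 12 counts in each library.

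Cldn4, the neighbor of Cldn3 and also a sealing claudin, was higher on average in MGL KO without passing the test. MGL KO replicates 1 to 4 measured 9.25, 8.03, 3.82 and 20.1 CPM, and WT replicates 2.79, 9.93, 1.58 and 1.37. WT 2 lay among the MGL KO values, and the other 3 WT libraries lay below all 4 MGL KO libraries. This gave a log2 fold change of 1.39 (SE 0.71, 95% interval -0.21 to 2.99, adjusted p = 0.629). It was 0.84 without MGL KO 4 and 2.42 without WT 2 (adjusted p = 0.764). The profiles most like it were those of another claudin, the pore-forming Cldn2, of Wdr31 and of Padi1, with root mean square differences of 0.67, 0.70 and 0.73.

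Cldn7 and Cldn23 stood out in 1 library only. Cldn7, a claudin found widely in simple epithelia, had 6, 7, 4 and 547 counts in MGL KO replicates 1 to 4 and 4, 5, 3 and 3 in WT. MGL KO 4 thus held 30.7 CPM, 105.3 times the pooled level of the other 7 libraries (95% counting interval 73.7 to 155.5), and those 7 lay at 0.20 to 0.63 CPM. The exact permutation test gave p = 0.0571. Elp5, the gene on the opposite strand, had 498 to 602 counts in the 8 libraries, 567 of them in MGL KO 4. The genes most like Cldn7 were Dnai2, part of the dynein arms of cilia, Prom1 and Cdhr3 (root mean square differences of 0.52, 0.55 and 0.58), all highest in MGL KO 4.

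Cldn23, known from intestinal epithelium, had 9, 3, 7 and 82 counts in MGL KO and 3, 15, 9 and 3 in WT. Without MGL KO 4 the MGL KO mean was 0.418 ± 0.141 CPM (SD, n = 3), beside 0.453 ± 0.331 in WT (n = 4). In MGL KO 4 it was 4.61 CPM, 10.3 times the pooled level of the others (95% counting interval 7.15 to 15.0). The exact permutation test over all 8 gave p = 0.486. Its closest profiles were those of Kif27, Acox2 and Mycbpap, with differences of 0.48 to 0.49, again highest in MGL KO 4.

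Cldn1, which is required for the barrier of the epidermis and is expressed in squamous epithelium, did not pass the test. MGL KO replicates measured 5.76, 7.67, 5.06 and 5.0 CPM and WT replicates 4.80, 4.91, 2.17 and 5.22. The highest library was MGL KO 2, where squamous differentiation markers were lowest, and the lowest was WT 3, with the groups overlapping between 5.0 and 5.22 CPM. Between genotypes the log2 fold change was 0.45 (SE 0.30, 95% interval -0.23 to 1.14, adjusted p = 0.686), and without WT 3 it was 0.24. MGL KO 4 did not stand out, at 1.00 times the pooled level of the other libraries. Hsd17b7, a steroid and cholesterol synthesis enzyme, Dtl and the amino acid transporter Slc7a5 had the closest profiles, with root mean square differences of 0.22, 0.23 and 0.23.

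Cldn5, the main claudin of endothelium, was lower on average in MGL KO without passing the test. MGL KO replicates measured 12.2, 13.4, 23.9 and 14.1 CPM, and WT replicates 21.2, 23.1, 18.4 and 21.6. Replicates 1, 2 and 4 of MGL KO lay below every WT library, and MGL KO 3 lay above all of them. Between genotypes the log2 fold change was -0.41 (SE 0.22, 95% interval -0.90 to 0.08, adjusted p = 0.632), and without MGL KO 3 it was -0.67 (adjusted p = 0.365). The 12 endothelial markers, which include Pecam1, Cdh5 and Kdr, were all detected and summed to 282.8, 210.0, 399.4 and 354.5 CPM in MGL KO and to 401.1, 356.6, 303.2 and 405.1 in WT. None of the 12 was called, 2 of them, Tek and Egfl7, had an unadjusted p under 0.05, against 8.65% of all genes, and all 12 had a log2 fold change below 0, with a median of -0.30 beside 0.02 over all genes. With their mean as a covariate the log2 fold change of Cldn5 was -0.19 (SE 0.20, adjusted p = 0.729). The same covariate moved Ocln from 0.91 to 1.83 and Cldn11, a claudin outside the 9, from -1.07 to -0.44, and the part of endothelium in these differences was not otherwise tested.

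Ocln, the tetraspan protein of the strands, varied between libraries more than between genotypes. MGL KO replicates measured 3.61, 0.36, 3.14 and 13.8 CPM and WT replicates 2.62, 4.62, 1.51 and 2.48. MGL KO 4 was the highest and MGL KO 2 the lowest of all 8, and the other MGL KO values lay inside the WT range. The genotypes differed by a log2 fold change of 0.91 (SE 0.81, adjusted p = 0.755), which was -0.22 without MGL KO 4 and 1.29 without MGL KO 2. In MGL KO 2 it rested on 4 counts.

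Ocln lay at a near constant distance below the squamous markers in most libraries. Its log2 CPM minus the mean log2 CPM of the tested squamous markers, 10 differentiated and 9 basal, lay between -6.32 and -6.02 in 6 libraries. It was -7.37 in MGL KO 2 and -3.69 in MGL KO 4. Over the 7 libraries without MGL KO 4, the SD within groups was 1.21 for Ocln itself and 0.446 for this difference. For Cldn1, Cldn5, Tjp1 and F11r the SD went the other way, from 0.495 to 0.898, 0.349 to 0.793, 0.279 to 0.607 and 0.270 to 0.579, while for Cldn4 it was 1.08 and 1.10. It also rose for Cldn3 (1.87 to 2.10), Cldn7 (0.402 to 1.07) and Cldn23 (0.815 to 0.929). The markers and the genes share libraries and scaling factors, so these spreads are a description. Subtraction also takes each gene to change as much as the markers, so a wider spread does not make a gene unrelated to them. With the marker mean as a covariate, over all libraries, the SE of the log2 fold change fell for Ocln, Tjp1 and F11r. It went from 0.807 to 0.714, 0.190 to 0.147 and 0.216 to 0.172. It rose for Cldn1, Cldn3 and Cldn4, was near equal for Cldn5, and no member was called. The log2 fold change of Cldn4 was then 1.75 (adjusted p = 0.463). The tested genes most like Ocln were Atp2c2, a secretory pathway calcium pump, Aldh1a7 and the sodium channel subunit Scnn1b, with root mean square differences of 0.18, 0.34 and 0.34.

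**Figure D3:**
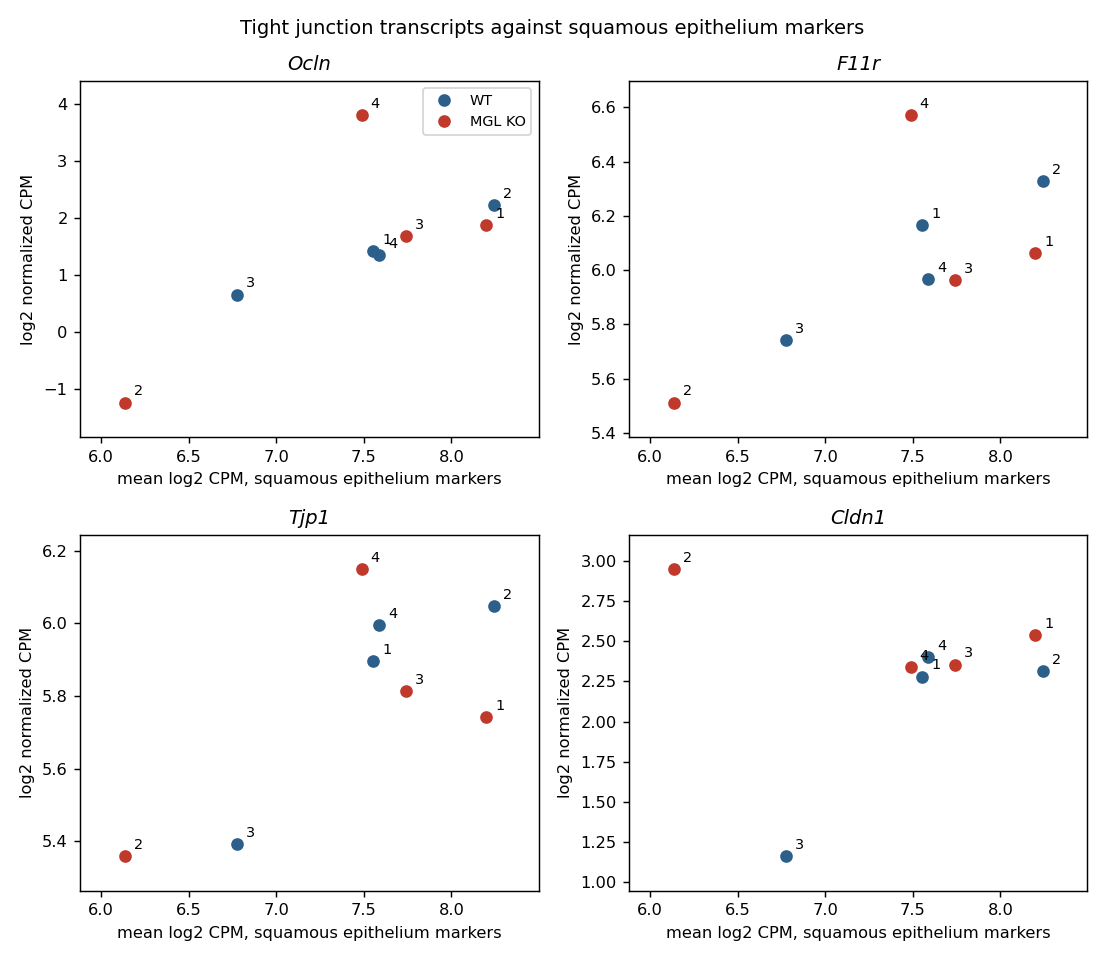
Log2 normalized CPM of Ocln, F11r, Tjp1 and Cldn1 (vertical axes) against the mean log2 CPM of the squamous epithelium markers (horizontal axes) in 8 libraries, numbered by replicate. For Ocln, 7 libraries lie along a rising line with MGL KO 4 above it, whereas Cldn1 is highest in MGL KO 2, the library lowest in squamous markers.

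Tjp1 and F11r had the log2 fold changes closest to 0 among the 7 tested genes. Tjp1 measured 53.5, 41.0, 56.2 and 70.9 CPM in MGL KO and 59.5, 66.1, 41.9 and 63.8 in WT, with a log2 fold change of -0.06 (SE 0.19, 95% interval -0.49 to 0.37, adjusted p = 0.933). F11r measured 66.7, 45.6, 62.3 and 94.9 CPM in MGL KO and 71.8, 80.2, 53.5 and 62.5 in WT, with a log2 fold change of 0.01 (SE 0.22, 95% interval -0.48 to 0.50, adjusted p = 0.991). For both genes MGL KO 4 was the highest library, and MGL KO 2 and WT 3, the libraries lowest in squamous markers, were the lowest. Summed skeletal muscle markers were highest in MGL KO 2 and WT 3, at 88189 and 74237 CPM, and lowest in MGL KO 4, at 35018. The part of either tissue was not tested. The sign of both differences changed with the setting: without MGL KO 4 they were -0.20 for Tjp1 and -0.20 for F11r, and without MGL KO 2 they were 0.06 and 0.16. Profiles most like F11r were those of Slc16a13, Itprid2 and Rassf10, with root mean square differences of 0.09 to 0.10.

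**Figure D4:**
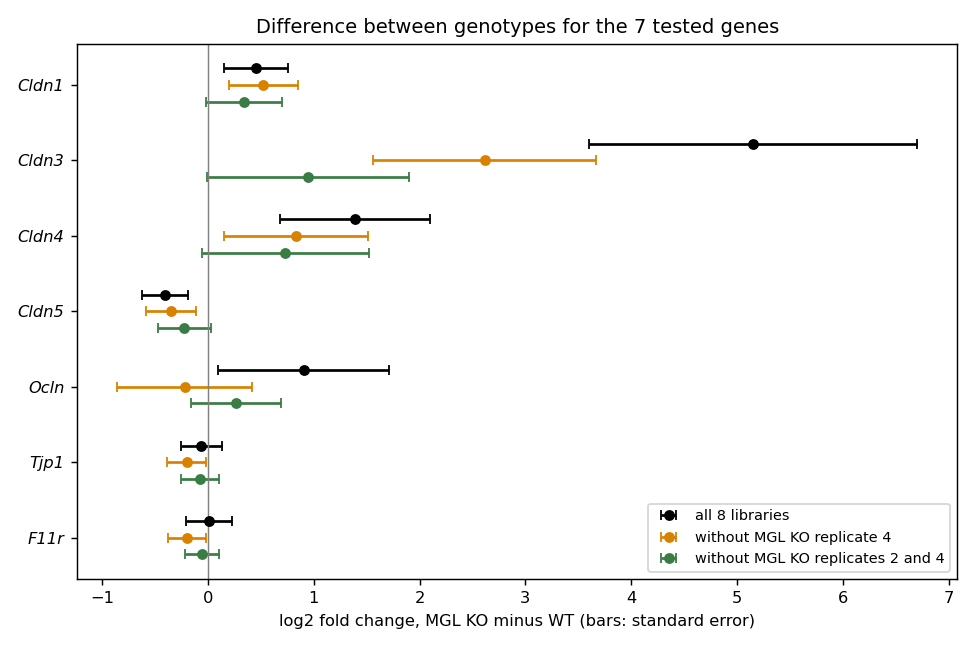
Log2 fold change (MGL KO minus WT, horizontal axis) of the 7 tested genes with bars of 1 SE, for all 8 libraries, without MGL KO 4, and without MGL KO 2 and 4. Cldn3 falls from 5.15 to 2.62 and 0.94 across the 3 fits, Ocln changes sign, and Tjp1 and F11r lie between -0.20 and 0.01.

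MGL KO 4 was the highest library for 7 of the 9 genes. Among the 7 tested members it was the highest for 5, against 18.8% of all tested genes. Its ratio to the pooled level of the others was 46.1 for Cldn3 (95% counting interval 39.1 to 54.5), 5.0 for Ocln, 3.86 for Cldn4, 1.47 for F11r and 1.28 for Tjp1. For Cldn5 the ratio was 0.725. Airway and glandular markers were also highest in MGL KO 4, and their part was not tested. MGL KO 2 was the lowest library for 3 of the 9 (Ocln, Tjp1 and F11r), all tested, where it was the lowest for 29.4% of all tested genes, and it was the highest for Cldn1 and the next highest after MGL KO 4 for Cldn3 and Cldn7.

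**Figure D5:**
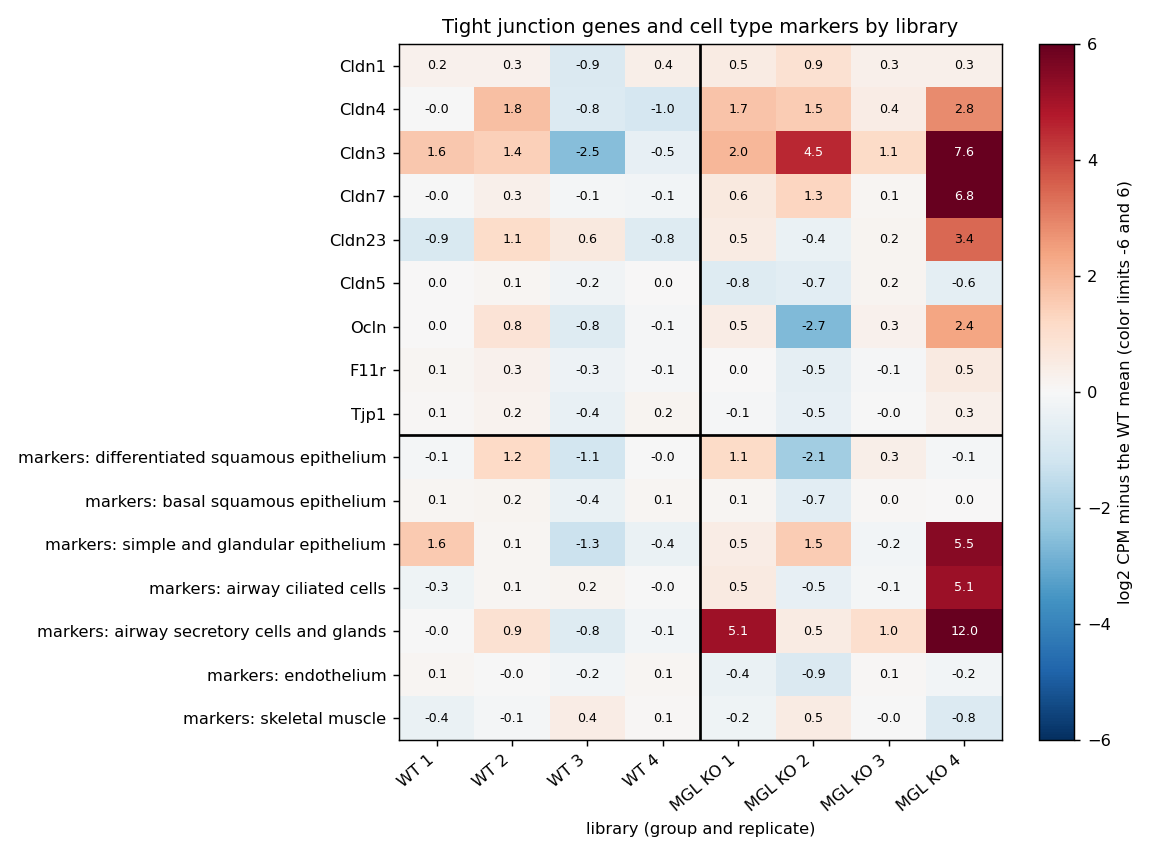
Log2 CPM minus the WT mean for the 9 genes and for the mean of 7 marker lists (rows) in 8 libraries (columns), each cell with its value. MGL KO 4 is high for Cldn3, Cldn7 and Cldn23 together with simple, ciliated and secretory epithelium markers, and MGL KO 2 is low for Ocln together with differentiated squamous markers.

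Outside the 9, 98 further junction genes in 7 lists were examined, of which 84 had a count and 75 were tested. None was called at an adjusted p under 0.05 by the quasi-likelihood test (0 of 75, against 0.0471% of all genes), and 4 higher and 1 lower had an unadjusted p under 0.05, 5 of 75 against 8.65%. The median log2 fold change was 0.07, beside 0.02 over all genes, and without MGL KO 4 it was -0.02 over 76 genes, beside -0.01. MGL KO 4 was the highest library for 29 of the 75, against 18.8% of all tested genes. MGL KO 2 was the lowest for 29, against 29.4%, and WT 3 for 25, against 15.5%.

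Among 29 other claudins, 8 were tested. Cldn2 measured 4.13 ± 3.96 CPM in MGL KO and 1.28 ± 0.551 in WT (SD, n = 4 each), with a log2 fold change of 1.69 and an adjusted p of 0.523, and without MGL KO 4 the log2 fold change was 0.74. Cldn11, the claudin of myelin and of the testis barrier, had a log2 fold change of -1.07 (adjusted p = 0.578), from 1.14 ± 0.537 CPM in WT. Averaged over both genotypes, the most abundant per kb were Cldn12 and Cldn8, with log2 fold changes of -0.13 and 0.40. Without MGL KO 4, the highest library for both, the MGL KO means were 17.2 and 5.02 CPM, beside 20.4 and 5.03 in WT.

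Of the other membrane proteins, 8 of 10 were tested, and 0 had an unadjusted p under 0.05. The endothelial adhesion protein Esam and Jam2 were the most abundant per kb, with log2 fold changes of -0.15 and -0.10. Ildr1, which with tricellulin marks the points where 3 cells meet, was not tested and had 29.5 CPM in MGL KO 4 and at most 1.17 elsewhere.

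All 16 plaque and scaffold genes were tested, with a median of 0.08. Amotl2, an angiomotin that binds junctions and actin, measured 87.8 ± 16.9 CPM in MGL KO and 63.5 ± 4.24 in WT (log2 fold change 0.47, SE 0.14, adjusted p = 0.478). Ybx3 and Amotl1 were the most abundant per kb, with log2 fold changes of 0.27 and 0.24. The 9 polarity genes, led by Lin7c and Pard3 in CPM per kb averaged over both genotypes, with log2 fold changes of 0.22 and 0.07, held 0 with an unadjusted p under 0.05.

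Myh14, a nonmuscle myosin heavy chain of the contractile belt at the junction, was the only gene of the 75 whose groups did not overlap, where 6.02% of all genes had such groups. It ranged from 247 to 434 CPM in MGL KO and from 171 to 223 in WT, with the top value in MGL KO 4. The genotypes differed by a log2 fold change of 0.68 (SE 0.18, adjusted p = 0.470 by the quasi-likelihood test) and 0.52 without MGL KO 4. DESeq2 alone among the alternatives called it (adjusted p = 0.0420), and DESeq2 called 0.935% of all genes. Its list of 14 contraction and signaling genes had a median of 0.12, and the small GTPases Cdc42 and Rhoa, the most abundant per kb, had 0.14 and 0.00.

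Among 11 transcription factors of junction genes, Elf3, a factor of differentiating epithelium, measured 20.1 ± 20.8 CPM in MGL KO and 6.56 ± 1.32 in WT. Its log2 fold change was 1.62 (adjusted p = 0.523) and 0.57 without MGL KO 4, which alone held 51.1 CPM against at most 11.4 elsewhere. Klf4 and Zeb1, the most abundant per kb, had 0.35 and -0.02. Of 9 adherens junction genes, 0 had an unadjusted p under 0.05, and the catenins Ctnnb1 and Ctnna1 had log2 fold changes of 0.19 and 0.15. Both catenins were highest in MGL KO 4. Without that library their MGL KO means were 227 and 220 CPM, beside 223 and 208 in WT.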

How the data were processed

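RNA-seq counts of 8 mouse esophagus libraries were analysed. The authors trimmed adapters with Cutadapt, aligned reads to GRCm39 with STAR 2.7.10b and deposited whole-number counts per gene symbol, without normalization, and the annotation and counting tool are not given in the sources used here. Groups and replicate numbers were taken from the labels. Genes were kept by filterByExpr (minimum count 10), which left 14864 of 22721 symbols with a count and at least 98.1% of the counts of a library. Library sizes over these genes were scaled by TMM factors of 0.82 to 1.11, and log2 CPM used a prior count of 1. MGL KO was compared with WT by the quasi-likelihood test of edgeR 4.0.16 in R 4.3.3 (Benjamini-Hochberg adjusted p under 0.05 over all genes tested). The SE was the size of the log2 fold change over the square root of F. The study's methods name edgeR, whose exact test was an alternative beside DESeq2 1.42.0 and limma 3.58.1. Scripts were tested on simulated data.

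CPM per kb used the length of the Ensembl canonical transcript in GENCODE M39, where 93.6% of symbols were found. Replicates were not alike within sampling noise (chi-square per degree of freedom of 13.6 or more). The members and gene lists were chosen with earlier results of these data known. Named were all members, Mgll, of each junction list up to 3 genes with the smallest unadjusted p under 0.05 and the 2 with the highest CPM per kb averaged over both genotypes, for each member spanning over 1 on the log2 scale the 3 tested genes with the closest centred log2 profile, and the markers needed to describe a list. Cldn5 and Tjp1 spanned less than 1. Ildr1 was chosen after its values were seen. Upstream sequences of Cldn7 and Ocln were not printed, since their windows overlap annotated untranslated regions, and the windows printed overlap none.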

Additional observations from a re-analysis of the deposited data

Results flagged for a closer look

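In each group of 4, a library was marked where its gap to the nearest other library exceeded Dixon's 95% critical value of the group's range. Of 44 groups examined, for the members, Mgll and summed marker lists, 13 were marked. For normally distributed values about 1 in 20, or 2.2, would be marked. CPM values need not be so distributed and the groups share libraries, so this comparison is a description. In MGL KO 4 these were Cldn3 at 69.7 CPM (nearest MGL KO value 8.39), Cldn7 at 30.7 (0.632) and Cldn23 at 4.61 (0.551). The same library was marked for the sums of simple and glandular epithelium markers at 406.8 CPM (62.4), airway ciliated markers at 753.4 (21.9), airway secretory markers at 11657 (72.0) and leukocyte markers at 67.4 (39.9). The leukocyte sum was not high in MGL KO as a group, and it reached 215.6 CPM in WT 1. Of the 5 tested leukocyte markers, 0 had a log2 fold change above 0, against 7884 of 14864 genes (median -0.95, beside 0.02). An unadjusted p under 0.05 was found for 3 of the 5, all lower, against 8.65% of all genes in either direction, and 0 were called. MGL KO 3 was marked for Cldn5 at 23.9 CPM, above the next MGL KO value of 14.1.

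Among WT libraries, WT 3 was marked low for Cldn1, at 2.17 CPM against 4.80 or more, and for basal squamous markers, at 3331 against 4841. WT 2 was marked high for Cldn4 at 9.93 CPM (nearest WT value 2.79) and for airway secretory markers at 4.11 (2.12). WT 1 was marked for thyroid markers at 4.80 CPM (0.742).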

How the results depend on the processing

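The count of members called was 0 under every alternative run, and the count of other junction genes called was 0 except with DESeq2, where it was 1 (Myh14). Over all genes, 7 were called, 3 of them higher in MGL KO. The count was 65 with edgeR's exact test, 42 with that test on every gene that had a count, 137 with DESeq2, 25 with limma-voom and 13 at an adjusted p under 0.1. It was 2 with the robust fit, without the filter, with the endothelium covariate and without MGL KO 2 and 4, and 2 to 5 when a library was left out, with 5 without WT 4, 4 without MGL KO 1, 3 without MGL KO 2 and 2 without any other. Library size alone called 6, 5 of them higher, and shifted the median log2 fold change of all genes by -0.04. The cause of these changes was not tested.

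Signs reversed for 3 members, none of them called. Ocln was -0.22 without MGL KO 4 (-0.22 to 1.29 over the libraries left out) and 0.23 with limma-voom to 1.83 with the endothelium covariate over the alternatives that keep all libraries. Tjp1 was 0.18 with the endothelium covariate and -0.20 to 0.061 over the libraries left out, with 0.01 without WT 2. F11r was -0.071 with limma-voom, -0.0051 with library size alone, -0.053 without MGL KO 2 and 4, and -0.20 to 0.16 over the libraries left out, with -0.08 without WT 3 and -0.02 without WT 4. The adjusted p of Cldn3 lay between 0.0869 and 0.923 over the alternatives that keep all libraries, and its log2 fold change between 2.18 and 5.85. It was 2.62 to 5.68 over the libraries left out. Requiring at least 10 counts in every library left out Cldn3 and Ocln, so no value was obtained. Without the filter, Cldn7 and Cldn23 had log2 fold changes of 5.09 (adjusted p = 0.602) and 1.68 (adjusted p = 0.675) by edgeR. DESeq2 called Myh14 at a log2 fold change of 0.69.

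With the replicate number as a block, 2 genes were called, 0 of them members, F11r was at -0.020, Ocln at 0.43 and Cldn3 at 3.76. Deviations from the group means of libraries with the same number had correlations of -0.14, -0.28, -0.14 and 0.08 over 14864 genes. These cannot show whether libraries of the same number shared a litter or a day, and the main test used no pairing. Depth limits Cldn7 and Cldn23 in particular, whose 3 to 15 counts in 7 libraries show large differences only.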
